A study of Mus musculus with 4 samples.

Results

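The genes described here are a set of 42 interferon response genes, chosen by name, in sorted mouse bone marrow cells that had been exposed to an interferon inducer. All 42, from DDX58, IRF7 and STAT2 to ISG20, OASL2 and MX2 as the table spells them, had a row in the deposited gene table. For 30 of them the signal was above background (detection p under 0.05) on 2 or more of the 4 arrays, the filter used for testing. These 30 are among 11538 genes that passed the same filter out of 30854 rows. By role they comprise 4 of 7 listed sensors and receptors, 4 of 4 transcription factors, 19 of 25 antiviral effectors and 3 of 6 GTPases. Illumina bead arrays were used, and the cells were LSK cells, a gate on Kit and Sca-1 among cells without lineage markers that takes in blood stem cells and their early progeny. All mice were C57BL6/J, 12 to 16 weeks old, and were given pIpC 1 week before harvest. The 2 control arrays are replicates 1 and 2 of a genotype labelled only as control, and the 2 knockout arrays are replicates 1 and 3 of mice labelled B-myb floxed-MxCre. Each array held RNA from a pool of 3 to 5 mice.

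B-myb, now named Mybl2, encodes a cell cycle transcription factor, and the comparison of the genotypes asks how its loss changes the transcripts of stem and early progenitor cells. The Mx-Cre transgene is driven by the interferon-inducible Mx1 promoter, so the recombinase is switched on by the same pathway as the genes described here, in every cell type that answers interferon. Whether the control mice carried Mx-Cre was not given in the labels. All 4 arrays came from mice that had received pIpC, so the response to pIpC itself cannot be read from them. The genotypes can only be compared with each other.

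pIpC is a synthetic double-stranded RNA. It is sensed by the endosomal receptor Tlr3 and by the cytosolic helicases Rig-I, encoded by Ddx58, and Mda5, encoded by Ifih1, and these sensors induce type I interferon. Interferon binds the receptor chains Ifnar1 and Ifnar2, and the kinases Jak1 and Tyk2 then activate Stat2, which joins Irf9 in a complex that binds the interferon-stimulated response element (ISRE) of target genes. In bone marrow, type I interferon is known to bring resting stem cells into cycle and to raise Sca-1, the product of Ly6a, which is part of the LSK gate.

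The number of genes above background differed between arrays. Between 12297 and 13439 genes were detected on the control arrays and between 8797 and 10761 on the knockout arrays, and of the 30 interferon genes that passed the filter 30 and 28 were detected on the control arrays and 30 and 22 on knockout replicates 1 and 3. Levels are given as log2 intensity after background correction and quantile normalization between arrays, a scale on which values of different genes are not compared. Mybl2 was at 7.19 and 6.52 on the control arrays, against 6.72 and 6.62 on the knockout arrays, with overlap, so this value is no check of the deletion and the labels alone give the genotypes. Of the gate genes, Kit was at 9.73 and 10.03 on the control arrays, against 9.044 and 9.004 on the knockout arrays, and Ly6a was at 10.27 and 11.22 against 10.57 and 10.52. Ly6a therefore overlapped between the genotypes, while both knockout values of Kit lay below both control values (change −0.86 ± 0.21 SE, adjusted p = 0.237).

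Most interferon response genes had slightly lower values in the knockout cells than in the control cells, and no single gene of the set passed the test. Of the 30 genes, 22 were lower and 8 were higher in the knockout, with a median log2 change of −0.24, beside −0.04 over all genes tested. Lower values made up 73.3% of the set, against 53.6% of all genes. At an adjusted p under 0.05 in limma 0 of the 30 passed, as did 0 of the 11538 genes (0%), and the lowest adjusted p in the set was 0.219. With median scaling in place of quantile normalization the median of all genes was itself at −0.70, and there 5 of the 30 passed, namely Isg20, Ddx58, Oasl2, Ifit2 and Rsad2, as did 940 of the 11538 genes (8.15%), on values that include this shift. At an unadjusted p under 0.05 there were 4 lower genes (13.3% of the set, against 8.77% of all genes) and 1 higher gene (3.33%, against 6.56%). These 5 were Isg20, Ddx58, Mx2 and Oasl2 on the lower side and Ifngr1 on the higher side. Leaving out control replicate 2 gave 2 lower genes at that level (6.67%, against 4.75% of all genes), and leaving out knockout replicate 3 gave 7 (23.3%, against 5.49%).

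Both knockout values lay below both control values for 16 genes (53.3%, against 28.1% of all genes) and above them for 3 genes (10%, against 22% of all genes), which were Ifngr1, Ifi47 and Isg15. The 16 include Ddx58, Stat2, Mx2 and Isg20, for which the control arrays alone met the filter. Of the 21 genes above background on all 4 arrays, 11 were lower without overlap, against 22.9% of all genes under that filter. There 16 of the 21 were lower by any size, against 45.8% of all genes. With 2 arrays against 2, an exact two-sided permutation test of a single gene cannot give a p below 1 in 3. A difference of at least 2-fold was found for 1 gene, Isg20, which is 3.33% of the set, against 2.56% of all genes for a decrease of that size. Standard errors ran from 0.19 to 0.37, and the 95% confidence interval of a gene reached between 0.48 and 0.92 to either side of its change. Differences smaller than that could not be resolved with these arrays. The standard error over the beads of a gene was between 2.36% and 10.9% of its signal. The spread within a genotype was uneven: the knockout arrays differed by more than 0.5 for 7 of the 30 genes and the control arrays for 2. Because RNA was taken from bulk cells, fewer cells of a responding type and less RNA per cell cannot be told apart.

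**Figure D1:**
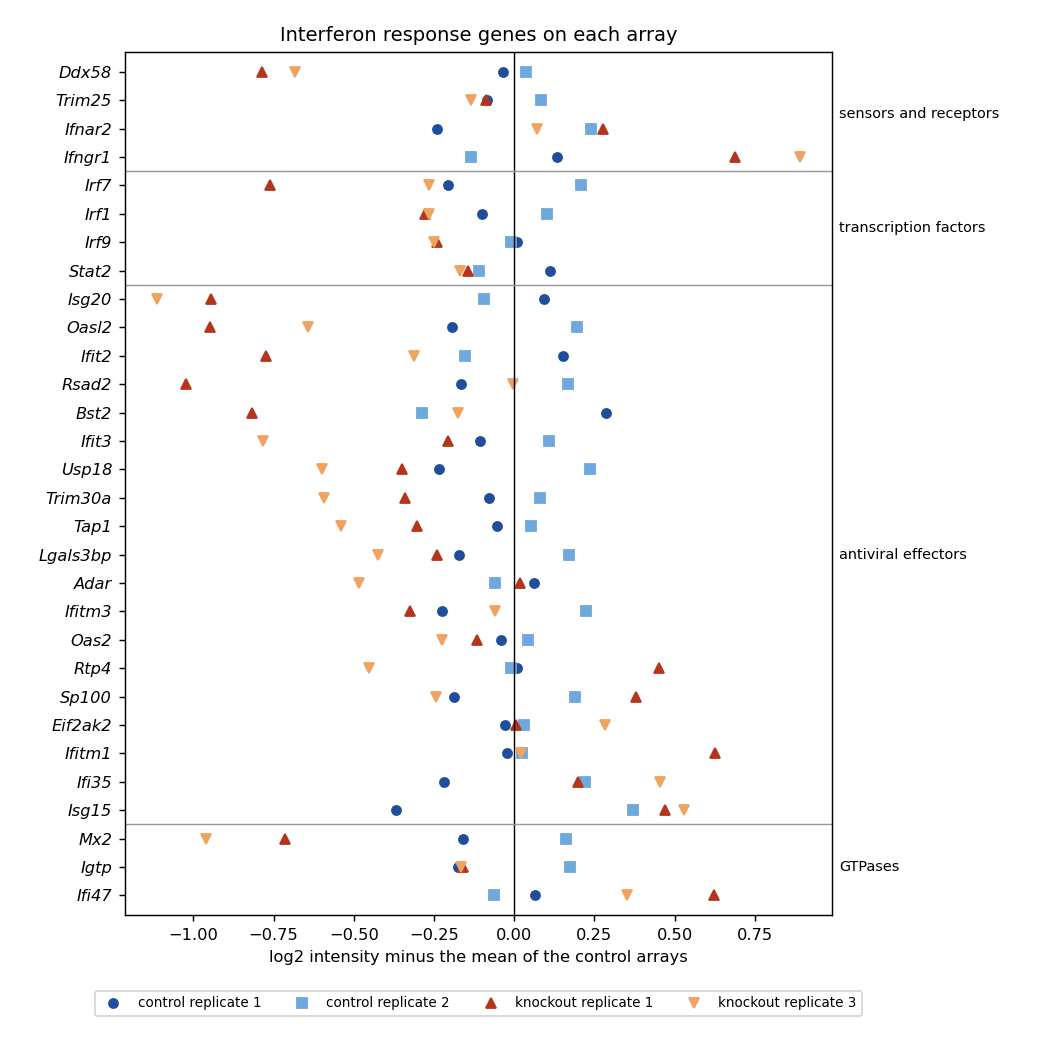
Log2 intensity of each of the 30 detected interferon response genes on each array, minus the mean of its 2 control arrays (horizontal axis), by role. Points are single arrays. Most knockout points lie left of 0, with Isg20, Mx2 and Ddx58 clear of their controls on the low side and Ifngr1 on the high side, while Rsad2, Bst2 and Rtp4 differ widely between the knockout arrays.

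Among the sensors and receptors the genotypes differed in opposite directions. Ddx58, whose product Rig-I senses short double-stranded RNA in the cytosol, was at 5.75 and 5.83 on the control arrays, against 5.01 and 5.11 on the knockout arrays. Both knockout values were lower, and the gap between genotypes exceeded the gap within either (change −0.73 ± 0.20 SE, adjusted p = 0.247). It was close to background in the knockout, where its deposited intensity was 106 and 112.8 against a 95th percentile of the negative controls of 101.5 and 112.8, and without background correction the change was −0.26. Ifngr1, the ligand-binding chain of the receptor for type II interferon, was at 8.14 and 7.87 on the control arrays, against 8.70 and 8.90 on the knockout arrays. It was the gene of the set with the largest positive change (0.79 ± 0.22 SE, adjusted p = 0.249). It kept a value of at least 0.61 under every other setting and with each array left out. The 0.61 is that of median scaling, taken relative to the median of all genes (−0.70). The limma fit there, on values that include this shift, gave an adjusted p of 0.864. Ifnar2, a chain of the type I receptor, differed by 0.17 ± 0.25 with overlapping values, and Trim25, the ubiquitin ligase that activates Rig-I, by −0.11 ± 0.20. Tlr3 and Ifnar1 were not detected on any array, and Ifih1 was detected on control replicate 1 only.

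All 4 transcription factors were lower in both knockout arrays than in both control arrays, a pattern that 28.1% of all genes showed, and none passed the test. Irf7, which amplifies interferon production once it is itself induced, was at 5.24 and 5.66 on the control arrays, against 4.69 and 5.18 on the knockout arrays (change −0.51 ± 0.27 SE, adjusted p = 0.413). Its arrays spread widely within each genotype, its deposited intensity on both knockout arrays was at the 95th percentile of the negative controls, and Stat2 was not above background on knockout replicate 3. The Irf7 change was −0.17 without background correction, −0.28 without knockout replicate 1 or without control replicate 2, and −0.88 without knockout replicate 3. Irf1, an early interferon-induced activator, was at 8.95 and 9.16 on the control arrays, against 8.78 and 8.79 on the knockout arrays (change −0.27 ± 0.20 SE, adjusted p = 0.537). Irf9 and Stat2, which are part of the ISRE-binding complex, differed by −0.24 ± 0.19 and −0.16 ± 0.20. The Irf9 arrays of each genotype lay close to each other, at 7.70 and 7.68 on the control arrays, against 7.45 and 7.44 on the knockout arrays. The median of the 4 factors relative to the control mean was −0.26 on either knockout array.

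The antiviral effectors made up most of the set, and 14 of 19 were lower and 5 higher, with a median change of −0.33. Isg20, an exonuclease that degrades viral RNA, had the largest change of the set in the reported setting, but Oasl2 had a larger one without background correction, with cyclic loess, with median scaling and without control replicate 1. It was at 5.87 and 5.68 on the control arrays, against 4.83 and 4.66 on the knockout arrays, 2.04-fold lower on this scale (change −1.03 ± 0.21 SE, 95% confidence interval −1.54 to −0.52, adjusted p = 0.219). On knockout replicate 3 it was not above background (deposited intensity 108.3, detection p 0.125), and its change was −0.35 without background correction and −0.78 with cyclic loess. Oasl2, a member of the oligoadenylate synthetase family, was at 7.43 and 7.82 on the control arrays, against 6.68 and 6.99 on the knockout arrays. It was 1.73-fold lower (change −0.79 ± 0.24 SE, adjusted p = 0.263) and was detected on all 4 arrays. Its change lay between −0.51 and −1.04 over the other settings, the latter with median scaling and relative to the median of all genes.

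Several further effectors were lower on a single knockout array more than on the other. Rsad2, which encodes viperin, an inhibitor of viral replication, was at 7.75 and 8.09 in the controls, 6.90 on knockout replicate 1 and 7.92 on knockout replicate 3. Its genotypes overlapped, and the change of −0.51 ± 0.37 became −1.02 without knockout replicate 3 and −0.0030 without knockout replicate 1. Bst2, encoding tetherin, which holds budding virus at the cell surface, was at 8.078 and 7.505 on the control arrays, against 6.98 and 7.62 on the knockout arrays, with an overlap and a change of −0.50 ± 0.32. Ifit2, whose product binds RNA and restrains translation, was at 7.12 and 6.82 on the control arrays, against 6.20 and 6.66 on the knockout arrays, without overlap (−0.54 ± 0.25). For these 3 genes knockout replicate 1 was the lowest array. Knockout replicate 3 was the lowest for Usp18, the protease that removes Isg15 from proteins and dampens receptor signalling (−0.47 ± 0.25), for Trim30a (−0.47 ± 0.21), for the peptide transporter gene Tap1 (−0.42 ± 0.21), for Lgals3bp, a secreted glycoprotein (−0.33 ± 0.22), and for Ifit3 (−0.50 ± 0.26). None of these 5 overlapped between genotypes, as 28.1% of all genes were lower without overlap. Ifit3 was above background on 1 array of each genotype only, and its change was −0.16 without background correction, −0.85 without knockout replicate 1 and −0.24 without knockout replicate 3. Ifit3 and Trim30a belong to families of close paralogs, and an array probe may not tell the copies apart. Over the 30 genes of the set, knockout replicate 3 was the lowest array 14 times and control replicate 2 the highest 15 times.

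The remaining effectors had small differences, overlapping values or higher values in the knockout. Isg15, the ubiquitin-like modifier that is among the most used interferon markers, was at 6.03 and 6.77 on the control arrays, against 6.87 and 6.92 on the knockout arrays. It was thus higher in the knockout, opposite to most of the set (change 0.50 ± 0.29 SE, adjusted p = 0.448), but the value rested on control replicate 1, since the change was 0.12 without that array and 0.88 without control replicate 2. Ifi35 (0.33 ± 0.24), the membrane protein gene Ifitm1, which blocks virus entry (0.32 ± 0.26), Eif2ak2, encoding the double-stranded RNA-dependent kinase PKR (0.14 ± 0.21), and the nuclear body gene Sp100 (0.07 ± 0.29) overlapped between genotypes. Ifitm3, a close relative of Ifitm1, differed by −0.19 ± 0.25, Adar, the RNA-editing deaminase, by −0.23 ± 0.25, and Oas2, which makes the second messenger that activates RNase L, by −0.17 ± 0.20. Rtp4 was at 5.22 on knockout replicate 1 and 4.32 on knockout replicate 3, on either side of control values of 4.78 and 4.76, and its mean change was near 0.

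The interferon-inducible GTPases did not share a direction. Mx2, of the dynamin-like GTPases, was at 5.36 and 5.68 on the control arrays, against 4.81 and 4.56 on the knockout arrays, 1.79-fold lower (change −0.84 ± 0.23 SE, adjusted p = 0.249). It was above background on 1 of the 2 knockout arrays, and the change was −0.27 without background correction and −0.55 with cyclic loess. Ifi47, an immunity-related GTPase of the response to type II interferon, was at 9.002 and 8.873 on the control arrays, against 9.56 and 9.29 on the knockout arrays, 0.49 ± 0.21 higher (adjusted p = 0.347). Igtp, of the same family, was at 8.67 and 9.01 on the control arrays, against 8.68 and 8.67 on the knockout arrays, with an overlap. Mx1, from whose promoter the Cre transgene derives, was not detected on any array, and the activity of the transgene was not measured. Gbp2, a guanylate-binding protein, did not pass the detection filter although its signal stood 1.83 to 4.99 times above the 95th percentile of the negative controls. Its log2 intensity was 8.04 and 8.33 on the control arrays, against 7.72 and 7.64 on the knockout arrays, and with a filter on signal, added after seeing the data, its change was −0.51 ± 0.22 (adjusted p = 0.336).

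**Figure D2:**
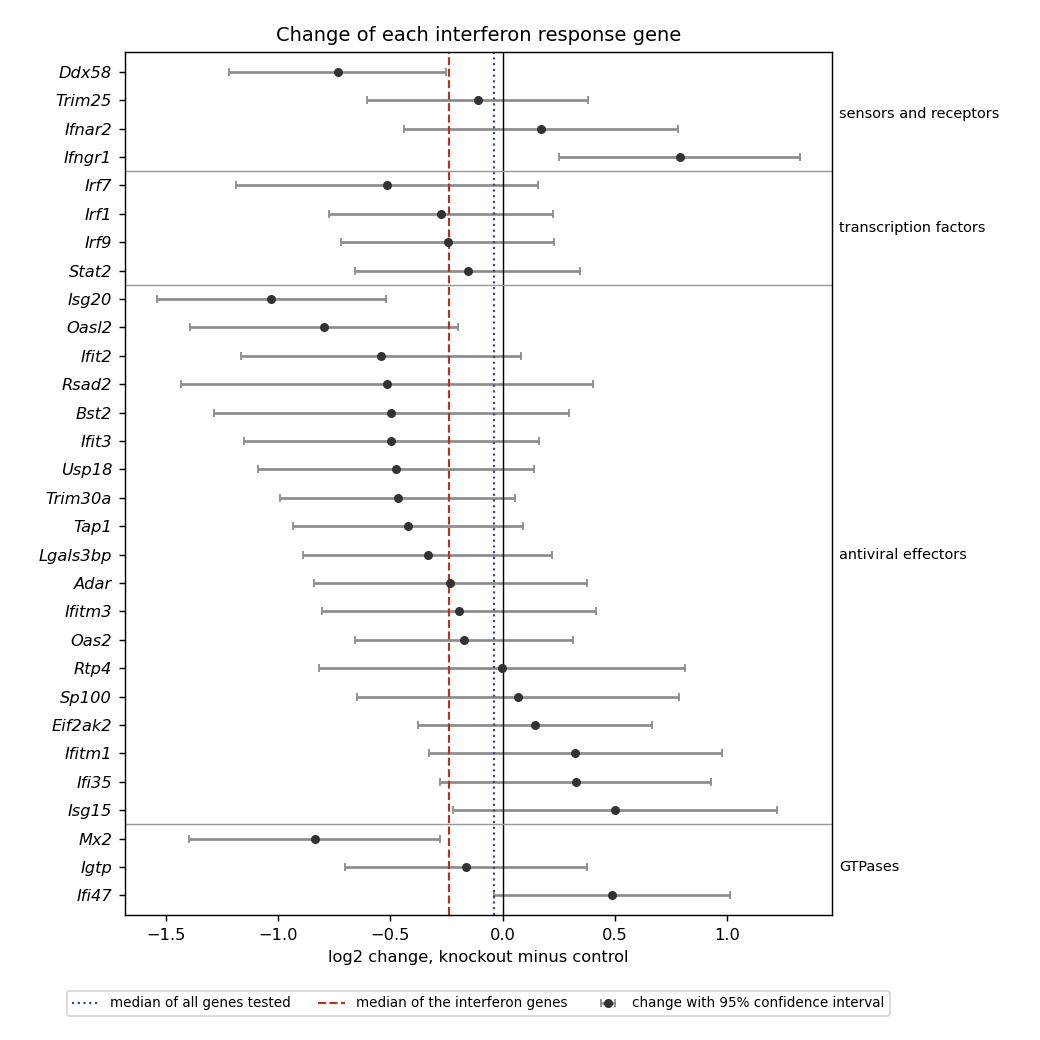
Log2 change, knockout minus control, of each of the 30 detected interferon response genes (points) with its 95% confidence interval (bars) by role. The dashed line is the median of these genes (−0.24) and the dotted line the median of all genes tested (−0.04). The intervals of Isg20, Oasl2, Mx2 and Ddx58 lie below 0 and that of Ifngr1 above 0, before adjustment over all genes.

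Of the 12 genes that did not pass the filter, 8 were detected on no array, namely Tlr3, Ifnar1, Mx1, Iigp1, Ifit1, Ifi44, Ifi204 and Xaf1, and 4 on 1 array, namely Ifih1, Gbp2, Oas1a and Oas3. Apart from Gbp2 their deposited intensity lay between 0.84 and 1.11 times the 95th percentile of the negative controls of the same array. No change is given for them. Of the 30 that passed, 7 were above background on both control arrays and on 1 knockout array, so the control arrays alone met the filter for them. They were Ddx58, Ifnar2, Stat2, Mx2, Isg20, Rtp4 and Sp100, and 3 of them (Isg20, Ddx58 and Mx2) are among the 4 lower genes at an unadjusted p under 0.05. Among the 21 genes above background on all 4 arrays, 1 was lower at that level (4.76%, against 8.07% of all genes under that filter). The rows of Isg15, Xaf1 and Iigp1 carried another name and were matched through the gene identifier or an older name. Iigp1 had 3 rows, none of which passed the filter, and its detection is given for the row of highest mean. Ddx58 and Rtp4 had 2 rows each, and their changes were the same with the mean of a gene's detected rows. Several genes that are undetected here, such as Ifit1 and Ifi44, are strongly induced by acute interferon, which is background and not a result, since no array without pIpC or at an earlier time was measured.

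**Figure D3:**
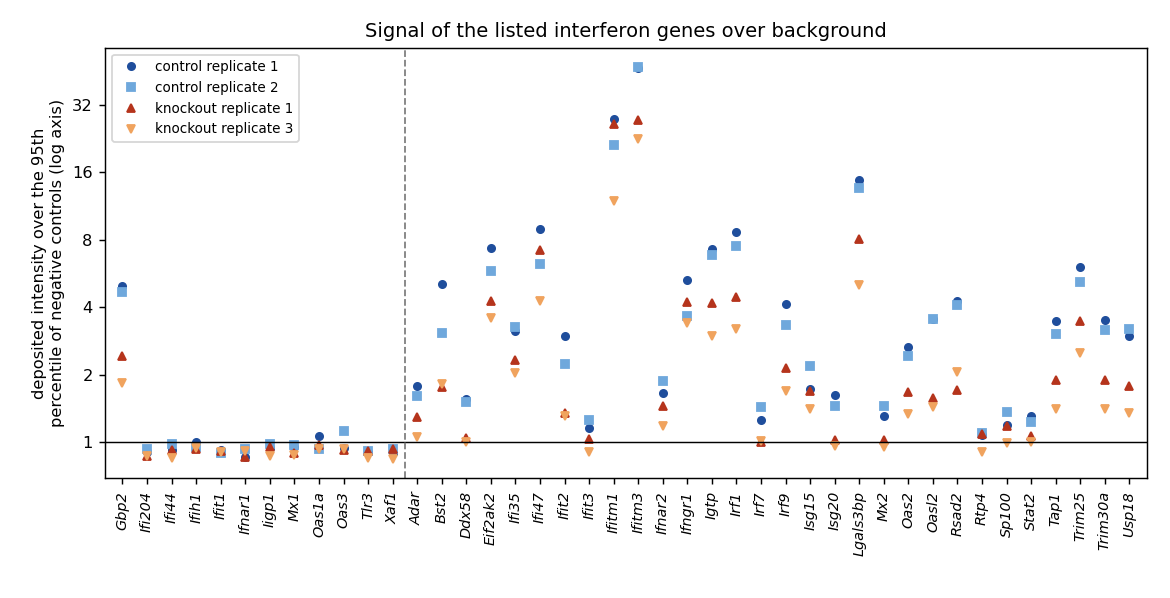
Deposited intensity of each of the 42 listed genes on each array, over the 95th percentile of the negative controls on the same array (vertical log axis), with the 12 genes that did not pass the filter left of the dashed line and the 30 that passed to its right, in alphabetical order. Apart from Gbp2 the genes on the left lie close to 1, the background limit. Values of different genes are not compared with each other.

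Promoter sequence is shown because interferon acts on these genes through the ISRE. RefSeq windows from 250 bases before to 50 after the transcription start (build GRCm38.p6) were found for 35 of the 42 genes. ISRE-type letters, GAAA then any 2 bases then GAAA on either strand, were present in 15 of the 35 (42.9%), against 3.99% of the 27025 genes with a window. The palindrome of the gamma-activated site, TTC then any 3 bases then GAA, was present in 12 of the 35 (34.3%), against 9.55% of all genes. Matches to both overlapped in Bst2 and Ifitm3. The set was chosen as interferon genes, so these shares describe it and are no finding, and a match is a description of letters and not a bound site. In 11 genes an ISRE-type match lay wholly before the start. The stretches shown are those of the genes with the largest changes in each role among the 7 detected genes of that kind, and no sensor or receptor gene was among them. They are given 5′ to 3′ on the strand of the gene, with the ISRE-type letters in capitals.
Rsad2: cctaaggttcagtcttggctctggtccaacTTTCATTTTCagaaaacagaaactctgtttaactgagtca
Isg15: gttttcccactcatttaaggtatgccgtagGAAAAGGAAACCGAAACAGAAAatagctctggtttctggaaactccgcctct
Bst2: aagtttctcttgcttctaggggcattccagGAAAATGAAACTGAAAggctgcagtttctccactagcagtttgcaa
Stat2: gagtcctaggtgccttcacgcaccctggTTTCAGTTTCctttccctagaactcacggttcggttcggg
Igtp: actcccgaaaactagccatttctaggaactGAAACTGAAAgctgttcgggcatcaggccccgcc

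The Rsad2 stretch lies at chr12:26456533-26456602 on the minus strand and its match begins 120 bases before the start, read on the opposite strand. That of Isg15, at chr4:156200845-156200926 on the minus strand, holds 3 overlapping matches beginning 78 bases before the start, and that of Bst2, at chr8:71537557-71537632 on the minus strand, holds 2 overlapping matches beginning 130 bases before it. The Stat2 stretch is at chr10:128270248-128270315 and the Igtp stretch at chr11:58199492-58199555, both on the plus strand, with matches that begin 222 and 34 bases before the start, that of Stat2 on the opposite strand. Of the 7 detected genes with a match wholly before the start only Isg15 was higher, in a set of which 73.3% were lower. Isg15, with 3 matches, was the effector with the largest positive change in the reported setting, a value that rested on control replicate 1. Ifitm1, with no ISRE-type match in its window, had a larger one without background correction (0.31 against 0.26). It also did with median scaling (0.40 against 0.26) and without control replicate 1 (0.30 against 0.12). A relation between matches and changes was not tested. Rsad2 and Bst2 were lower with overlap, and Stat2 and Igtp differed by −0.16 and −0.16. Ifit3 and Trim30a, whose stretches are not shown, were lower without overlap (−0.50 and −0.47). The 4 lower genes named above at an unadjusted p under 0.05 had no match wholly before the start in the windows used here, where Mx2 had no window and the match of Ddx58 began just after the start.

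Other genes of the pathway, taken from 4 lists, lay on both sides. Of 115 listed genes 83 were tested, 49 were lower and 34 higher, and the median change was −0.09. At an adjusted p under 0.05 there were 0, and at an unadjusted p under 0.05 there were 6 lower and 4 higher, which is 7.23% and 4.82% of these genes and below the 8.77% and 6.56% of all genes. Among 25 signalling genes the median was −0.16. Irf2, a factor that opposes Irf1 at shared elements, was at 10.34 and 10.26 on the control arrays, against 9.55 and 9.21 on the knockout arrays, 1.89-fold lower (change −0.92 ± 0.22 SE, adjusted p = 0.237). Myd88, the adaptor of most Toll-like receptors, was at 8.92 and 9.05 on the control arrays, against 9.87 and 9.78 on the knockout arrays, 1.80-fold higher (change 0.85 ± 0.20 SE, adjusted p = 0.237). Irf2bp2, a corepressor that binds Irf2, differed by −0.72 ± 0.25 and the nucleic acid sensor gene Zbp1 by 0.47 ± 0.19. The interferon genes Ifnb1, Ifng, Ifna2 and Ifna4 were not detected on any array, and Ifna1 was detected on control replicate 2 only (deposited intensity 86.2).

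Among the 113 tested genes of the set and the lists, the largest change in the reported setting was that of a feedback inhibitor. Socs3, which blocks Jak kinases below cytokine receptors, was at 7.02 and 6.61 on the control arrays, against 8.78 and 8.40 on the knockout arrays. Both knockout values were well above both controls, 3.42-fold higher (change 1.78 ± 0.25 SE, 95% confidence interval 1.15 to 2.41), although the adjusted p of 0.169 did not pass. Its change lay between 1.27 and 1.97 over the other settings and with each array left out. Among the other 6 tested feedback genes the phosphatase gene Ptpn1 differed by 0.67 ± 0.39, Pias1, an inhibitor of Stat signalling, by −0.50 ± 0.20 and the phosphatase gene Ptpn6 by −0.32 ± 0.21. Socs1 did not pass the detection filter.

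Among 39 further induced genes 21 were lower and 18 higher, with a median of −0.04. Shisa5, an endoplasmic reticulum protein gene, was at 8.85 and 9.25 on the control arrays, against 7.997 and 7.892 on the knockout arrays, 2.15-fold lower (change −1.11 ± 0.23 SE, adjusted p = 0.227). Samd9l, which restrains growth of blood progenitors and is mutated in familial marrow failure in humans, differed by −0.76 ± 0.22. On the higher side Ifi30 differed by 0.71 ± 0.33 and Slfn1 by 0.74 ± 0.65. Slfn1 was high on knockout replicate 1 only, and its change was −0.31 without that array. In the 12 tested genes of class I antigen presentation, which bring peptides to the cell surface, the median was −0.12. The proteasome activator gene Psme2 was at 7.07 and 6.78 on the control arrays, against 7.97 and 7.72 on the knockout arrays (change 0.92 ± 0.22 SE, adjusted p = 0.237) and the immunoproteasome subunit gene Psmb8 differed by 0.42 ± 0.19, the transactivator gene Nlrc5 by −0.54 ± 0.34 and the class I heavy chain gene H2-D1 by −0.45 ± 0.21. The genotypes overlapped for Nlrc5, and leaving out control replicate 2 gave a change of −0.077, while leaving out control replicate 1 gave −1.01.

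**Figure D4:**
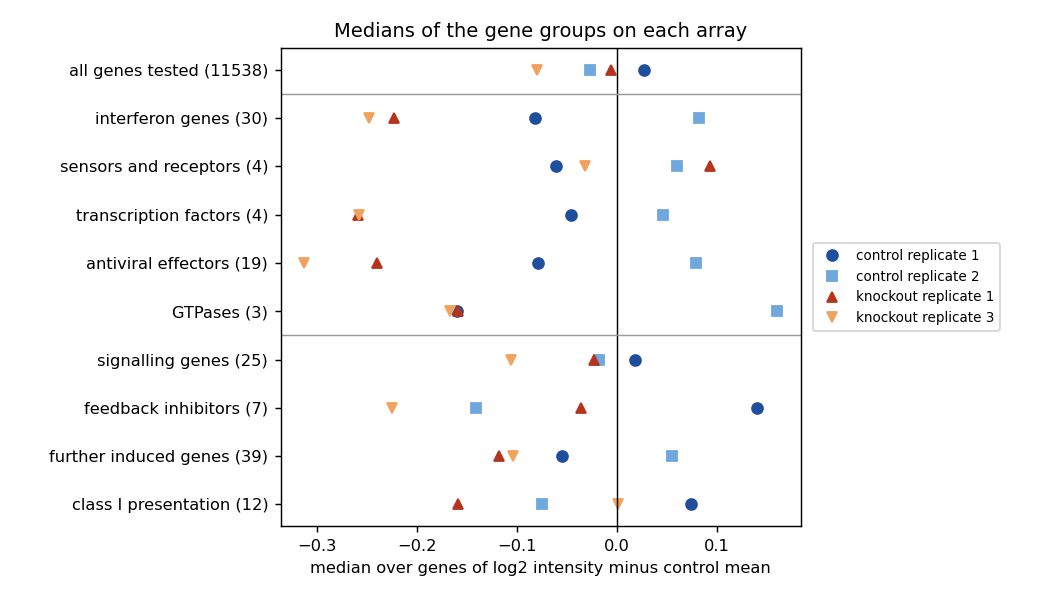
Median over the genes of each group, on each array, of log2 intensity minus the control mean (horizontal axis), with the number of genes tested in parentheses. The interferon genes are at −0.22 and −0.25 on the knockout arrays and −0.08 and 0.08 on the control arrays, all genes tested lie between −0.08 and 0.03, and the 4 lower groups are the other pathway genes.

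Summed levels of marker genes of several cell types also differed between the genotypes or between arrays. All 8 megakaryocyte markers were tested and lower, as were 53.6% of all genes, with a summed normalized intensity of 1719 and 1667 in the controls against 605 and 543 in the knockouts. Ppbp and Tubb1 were above background on the control arrays only, and Gp1bb on 1 knockout array, so the control arrays alone met the filter for these genes. Of 7 markers of plasmacytoid dendritic cells, the main producers of type I interferon, 4 were tested, and the list summed to 643 and 718 against 673 and 548. Among them Ccr9 and Tcf4 had a detection p under 0.05 on no array and Siglech on 1 control array only. The deposited intensity of Tcf4 was 563.5 and 503.7 on the control arrays, against 339.4 and 269.5 on the knockout arrays. These values lay well above the 95th percentile of the negative controls (94.8 and 85.3 against 101.5 and 112.8). The sums include listed genes that were not tested, and Tcf4 was the largest term of this one on every array. The monocyte and macrophage list (7 of 10 tested) summed to 1069 and 1682 against 2448 and 1159. Of its 7 tested genes 4 were higher on both knockout arrays than on both control arrays (Ccr2, F13a1, Cd14 and Cd68), a pattern that 22% of all genes showed. For Cd14 this rested on 5.022 on knockout replicate 3, not above background there, against 5.018 on control replicate 1. Ccr2 was above background on 1 of the control arrays. The other 3 overlapped, with changes of −0.02 for Csf1r, −0.45 for Lyz2 and −0.51 for Mpeg1, and the median change was 0.33. Ccr2 differed by 1.42 ± 0.19 and F13a1 by 1.68 ± 0.27. The neutrophil list (7 of 10) summed to 1540 and 4518 against 16222 and 1064, with its high value on knockout replicate 1. T and NK cell markers (7 of 8) summed to 1685 and 1391 against 2618 and 3808, but their median change was 0.01, with 4 higher and 3 lower. Nkg7 differed by 1.24 ± 0.28 and Lck by −0.69 ± 0.25. Cd3e and Cd2 were not detected on either knockout array, but they were close to background on the control arrays too. Their changes were −0.14 ± 0.20 and −0.10 ± 0.20. The B lineage list (5 of 8), with Ms4a1 not detected, summed to 1472 and 805 against 940 and 435, the erythroid list (9 of 9) to 4175 and 3355 against 2433 and 7851, and the mast cell and basophil list (4 of 6) to 615 and 620 against 346 and 345. The stem and LSK list (6 of 10), with Procr not detected, summed to 3904 and 6140 against 3037 and 2979. Each sum weights its genes by their intensity. The median change was −1.22 for the megakaryocyte list (8 of 8 lower), −0.53 for the mast cell and basophil list (3 of 4 lower) and −0.53 for the stem and LSK list (5 of 6 lower). For the B lineage list it was −0.41 (5 of 5 lower). For the erythroid list it was 0.01, with 4 lower and 5 higher, from Car1 at −2.36 ± 0.25 to Slc4a1 at 0.84 ± 0.74. The part of these cell types in the lower interferon values was not tested.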

How the data were processed

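Total RNA from sorted LSK cells was hybridised to 4 Illumina bead arrays, 2 per genotype, per the labels. The deposited table gave, per gene name, an intensity without background subtraction or normalization, a detection p-value, a bead standard error (a signal in intensity units) and a bead number, per the file headers. The array type, the scanner's software and the way probes were merged into a gene row are not given in the sources used here. A second deposited table of intensity values under probe identifiers was not used here. 1 row of annotation text was left out.

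Gene symbols were brought up to date from RefSeq (GRCm38.p6), with 16223 current symbols, 5684 older symbols and 868 gene identifiers matched and 8079 names kept as written. Intensities were corrected by normexp with 936 negative control probes (offset 16), quantile-normalized and taken to log2 by neqc (R 4.3.3, limma 3.58.1). Genes with detection p under 0.05 on at least 2 arrays were kept, with the row of highest mean per gene. Knockout minus control was tested with lmFit and eBayes (3.72 prior degrees of freedom), two-sided, adjusted by Benjamini-Hochberg over all 11538 genes, and the fit was tested on simulated data. Adjusted p-values come from this limma fit, except where the text names a different filter. P-values measure the spread between these pools of mice. Set members, lists and tests were chosen with earlier results of these data known. Array values are printed for set genes with an unadjusted p under 0.05, an absolute log2 change of at least 0.8 or, per role, the 2 largest absolute changes. Of the wider lists those with an unadjusted p under 0.01 and, per list, the 2 largest changes in each direction are named. Other genes are given by change, and those shown with array values besides (such as Rsad2, Bst2 and Rtp4) were picked after their values were seen. Promoters are shown for up to 5 set genes with the largest changes per role that hold an ISRE-type match. Alternatives covered background correction, normalization, filters, variance moderation, row choice and each array left out. The number of arrays limits precision. The result of 1 listed pathway gene is not reported here.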

Additional observations from a re-analysis of the deposited data

How the results depend on the processing

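The direction of the set's median held under every alternative run. It was −0.24 in the reported setting, −0.16 without background correction, −0.16 without a filter on dim genes and between −0.21 and −0.29 with each array left out. With median scaling all genes were at −0.70, and relative to that shift the set's median was −0.37. There 5 of the 30 genes passed the adjusted threshold and 20 lower genes an unadjusted p under 0.05 (66.7%, against 37.9% of all genes), on values that include the shift. In all other settings, eBayes with trend and robust options included, 0 passed. Over all genes tested, 0 passed as reported, 3 with cyclic loess, 940 with median scaling, 17 among genes detected on all 4 arrays and 15 with trend and robust options. The count of lower genes at an unadjusted p under 0.05, 4 as reported, was 1 among the 21 genes detected on all 4 arrays and 8 among all 42 without a filter, where fewer or more genes were tested, and 2 to 7 with an array left out. The 8 of 42 genes at that level without a filter were 19% of the set, against 6.5% of all genes. In the reported setting 16 of 30 genes were lower without overlap, against 28.1% of all genes. This count was 11 to 19 over all alternatives, which differed in the number of set genes tested. It was 11 of 30 with median scaling, against 17.9% of all genes. Among genes detected on all 4 arrays it was 11 of 21, against 22.9% of all genes under that filter. Without a filter it was 19 of 42, against 22.2% of all genes. With an array left out it was 18 or 19 of 30, against 38 to 45.3% of all genes. In 13 cases the change of a named gene turned sign. Rtp4 was at 0.17 with cyclic loess, 0.44 with median scaling and between −0.50 and 0.53 with an array left out, 0.00012 without control replicate 1. Ifnar2 was at −0.032 and Eif2ak2 at −0.0054 with median scaling. All changes of single genes given for median scaling are relative to the median of all genes, while the p-values of that setting are not. With an array left out Ifnar2 ranged from −0.065 to 0.41, Igtp from −0.35 to 0.012, Ifitm3 from −0.42 to 0.029, Adar from −0.48 to 0.019, Sp100 from −0.26 to 0.42 and Slfn1 from −0.31 to 1.95. The cause was not tested. No paired analysis was possible because the genotypes share only 1 replicate number. Genes near background, such as Isg20, Mx2 and Ddx58, had smaller changes without background correction, and for them the signal over background limits the size that can be stated.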
